A study of Mus musculus with 10 samples.

Results

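The HoxA cluster of the mouse and its flanking domains were examined in Hi-C maps of embryonic stem cells. The region was taken as the window from 51.2 to 53.2 Mb of chromosome 6 in the mm9 build, in which the HoxA genes occupy 52.10 to 52.22 Mb. The members named for it were 9 genes, Hoxa2, Hoxa3, Hoxa4, Hoxa5, Hoxa7, Hoxa9, Hoxa10, Hoxa11 and Hoxa13. Every TAD (topologically associating domain, a stretch of chromosome that contacts itself more than its neighbours) overlapping the window was used, as was every listed pair of 10 kb bins with an end in it. That gave 25 of 41342 TADs and 24 of 17029 listed pairs over 10 libraries. The window was defined by position, not by a threshold on its values, but members and lists were chosen with earlier results of these data known.

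All libraries came from the line ES-E14TG2a, grown without feeder cells with LIF and inhibitors of GSK3b and MEK. Each of 5 genotypes had 2 libraries. WT cells carried no deletion, E1-KO cells lacked enhancer E1, E2-KO cells lacked E2, E3-KO cells lacked E3, and the double knockout, E1&E3-dKO, lacked E1 as well as E3. Linear DNA was removed after ligation with treatments named LRC or LIC, and the labels do not say which library had which, so a difference in treatment cannot be told apart from one between libraries or genotypes. The labels give neither the position of the enhancers nor whether libraries of a genotype came from separate clones or cultures. A p-value here therefore speaks of the variation among these libraries, which may be technical. A title starting with w326 was shared by 4 of them, namely E2-KO replicates 1 and 2, E3-KO replicate 2 and WT replicate 1. The files hold no gene levels, so neither the stem cell identity nor the expression of any Hoxa gene could be checked.

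Hox genes encode homeodomain transcription factors that give cells their position along the body axis. They lie in clusters whose gene order follows the order in which the genes come on along that axis, and in embryonic stem cells the clusters are largely silent and covered by Polycomb marks. TAD boundaries, often held by CTCF and cohesin, limit which enhancers reach which genes. Within the cluster Hoxa2 acts in the hindbrain and the cranial neural crest, Hoxa3 in the thymus and parathyroid, Hoxa5 in the lung and axial skeleton, Hoxa9 in blood progenitors, Hoxa10 in the uterus, Hoxa11 in the middle limb and Hoxa13 in the hand, foot and genital tubercle. In the gene order of the GRCm38 annotation, used for names only, the members run from Hoxa2 on the low-coordinate side to Hoxa13 on the high side. Beyond the low side lies Skap2, an adaptor of Src family kinases, and next to Hoxa13 lies Evx1, another homeobox gene. All 8 members with a listed promoter are on the minus strand and Evx1 is on the plus strand.

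A boundary lay inside the HoxA cluster in every library. It was at 52.19 Mb in 8 libraries, namely both WT, both E1-KO and both E1&E3-dKO libraries, E2-KO replicate 2 and E3-KO replicate 1. In E2-KO replicate 1 a TAD began at 52.20 Mb, and in E3-KO replicate 2 a TAD ended at 52.18 Mb and the next began at 52.20 Mb. The positions thus spread over 20 kb, or 2 steps of the 10 kb grid. The boundary was 90 kb from the low edge of the cluster and 30 kb from the high edge, so most of the cluster fell in the domain on the Skap2 side and the last stretch, towards Evx1, fell in the other. Gene positions in mm9 were not used here, so the boundary was not assigned to a particular Hoxa gene.

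**Figure D1:**
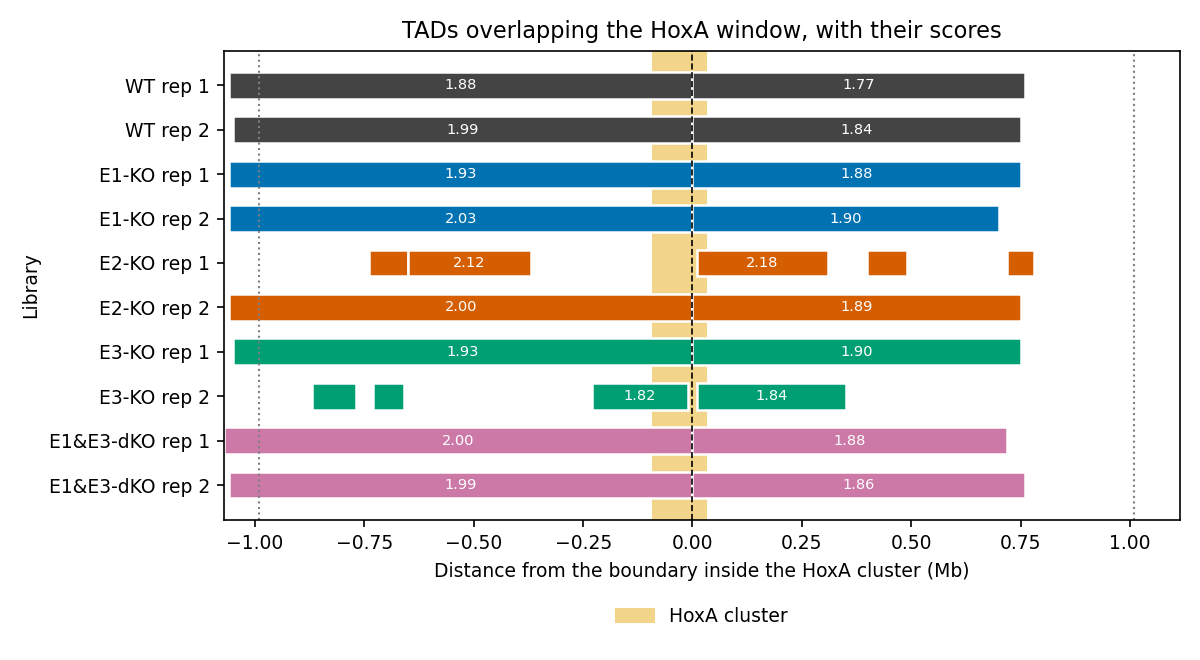
Each bar is a TAD that overlaps the HoxA window in 1 of 10 libraries, placed by its distance in Mb from the boundary inside the cluster (dashed line), with the score written on the longer ones. The shaded band is the cluster and the dotted lines are the window's ends. A pair of abutting bars fill most of the window in 8 libraries, while E2-KO replicate 1 and E3-KO replicate 2 hold 5 and 4 shorter bars.

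Few of all boundary sites of the genome recurred in this way, in a count that includes sites of single libraries. Of 27109 boundary sites, formed by joining TAD ends within 25 kb over the libraries, 10.3% were held by at least 8 libraries and 3.83% by all 10, as this one was. Of these sites 12439 were found in 1 library, which lowers both shares. Sites held by both WT libraries numbered 3714, and 1038 sites were held by all 10 libraries. Of 21159 tiles of 120 kb, the length of the cluster, 6.35% had a TAD end in all libraries. Among the 1038 sites held by all, the median spread of positions was also 20 kb and 61.4% had a spread of at most that. At the exact position of the HoxA site stood 8 libraries, against a median of 6, and 27.7% of those sites had 8 or more. The boundary was therefore among the recurrent sites and was placed about as precisely as others of that kind.

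**Figure D2:**
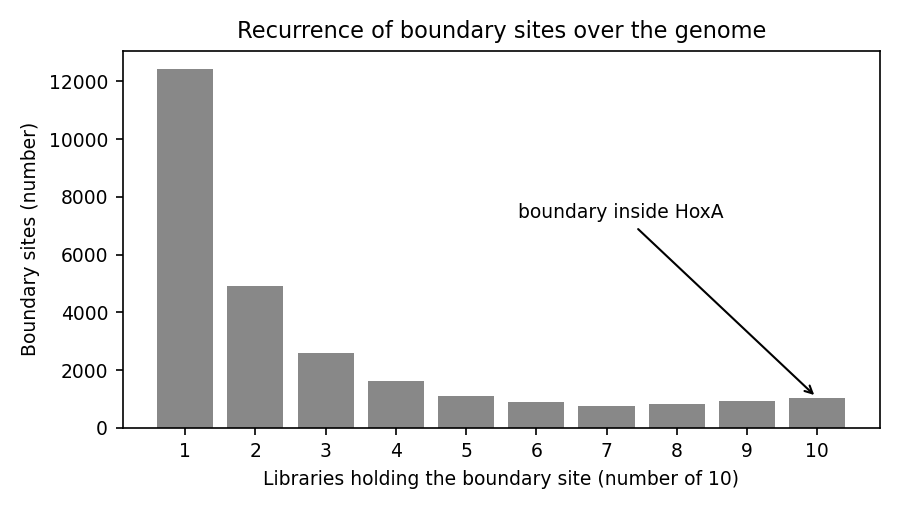
Bars give the number of boundary sites of the whole genome (vertical axis) held by 1 to 10 libraries (horizontal axis). The arrow marks the class of the boundary inside HoxA, which has 1038 sites, against 12439 sites held by 1 library.

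On the Skap2 side, 8 libraries held a single TAD of 1.05 to 1.07 Mb. It began between 51.12 and 51.14 Mb, just outside the window, and ended at 52.19 Mb in each of them. Genes on this side in the GRCm38 order include Skap2, Snx10 (a sorting nexin), Cbx3 (a heterochromatin protein), Hnrnpa2b1 (an RNA-binding protein) and Nfe2l3 (a transcription factor), and which of them lie inside the TAD was not determined. In WT the score that the authors gave this TAD came to 1.883 and 1.986, in E1-KO to 1.925 and 2.034, and it was 2.000 in E2-KO replicate 2, 1.927 in E3-KO replicate 1, and 1.995 and 1.989 in E1&E3-dKO. WT replicate 1 was the lowest and E1-KO replicate 2 the highest, and WT replicate 2 lay among the knockouts. The TAD was longer than 92.2% to 98.1% of the TADs of its own list and its score exceeded 82.1% to 91.0% of them.

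On the Evx1 side the same 8 libraries held a TAD of 0.70 to 0.76 Mb that began at 52.19 Mb and ended between 52.89 and 52.95 Mb. Genes on this side in the GRCm38 order include Evx1, Hibadh (an enzyme of valine breakdown), Tax1bp1 (an autophagy receptor), Jazf1 (a zinc finger protein) and Creb5 (a transcription factor). Which of these genes lie inside the TAD was not determined. The length of the TAD was 0.76 and 0.75 Mb in WT, 0.75 and 0.70 Mb in E1-KO, 0.72 and 0.76 Mb in E1&E3-dKO and 0.75 Mb in E2-KO replicate 2 and E3-KO replicate 1. E1-KO replicate 2 and E1&E3-dKO replicate 1 were the shortest, and the other library of each of these genotypes reached the WT lengths. Of all 21035 distinct TADs of the genome, matched by a reciprocal overlap of at least 80%, 5.18% were held by at least 8 libraries, as both of these were. That base also counts TADs of single libraries, which lowers the share.

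For the Evx1-side TAD the WT scores were 1.774 and 1.844. The knockout scores were 1.879 and 1.903 in E1-KO, 1.889 in E2-KO replicate 2, 1.902 in E3-KO replicate 1, and 1.884 and 1.864 in E1&E3-dKO. Both WT libraries lay below all 6 knockout libraries, which averaged 1.89 ± 0.0147 (SD, n = 6) against 1.81 ± 0.0495 (SD, n = 2). This order was singled out after the values were seen and is given without a test. Of the 651 TADs held by the same 8 libraries, 5.53% had both WT scores below every knockout score. That share leaves out the reverse order, with both WT scores above every knockout score. As a percentile within its own list, the score overlapped between the groups, at 70.7% and 75.4% in WT and 70.8% to 81.7% in the knockouts, with WT replicate 1 the lowest of the 8 on this scale too. The Skap2-side TAD scored above the Evx1-side TAD in 8 of 8 libraries, by 0.025 in E3-KO replicate 1 up to 0.142 in WT replicate 2.

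**Figure D3:**
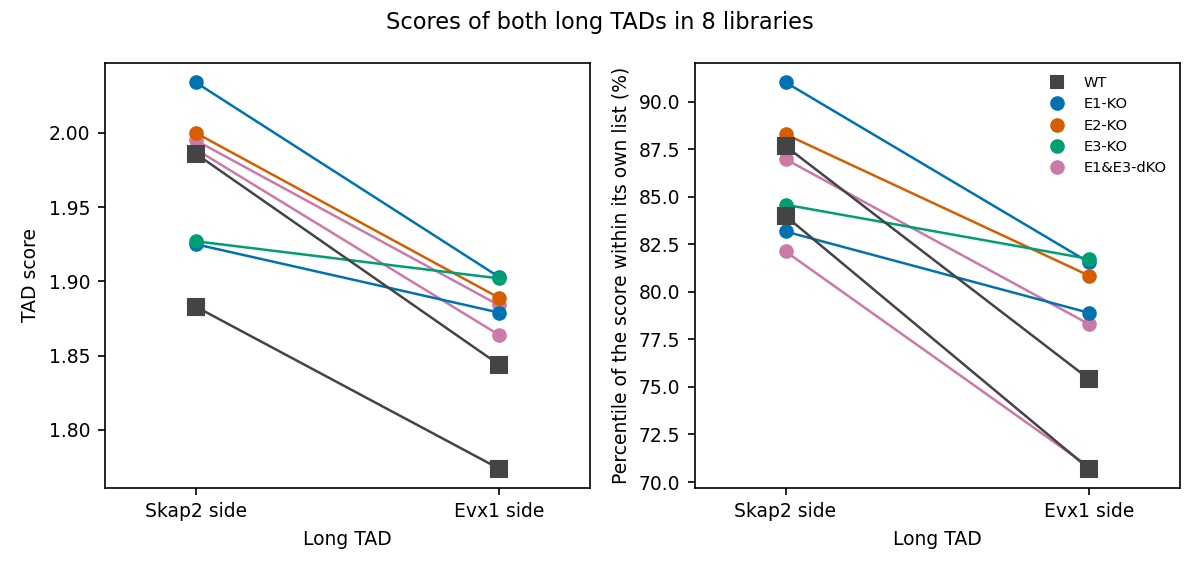
Lines join the scores of the Skap2-side and Evx1-side TADs of 1 library, on the authors' scale (left) and as the percentage of TADs in the same list with a lower score (right), for the 8 libraries that hold both, with squares for WT and circles for knockouts. Scores fall from the Skap2 side to the Evx1 side in each library, and on the Evx1 side both WT squares lie below every knockout on the left, while on the right WT replicate 1 is still the lowest (70.7%, against 70.8% in E1&E3-dKO replicate 2) and WT replicate 2 lies among the knockouts.

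The pair of long TADs was absent from E2-KO replicate 1 and E3-KO replicate 2, while the other library of each genotype held it. E2-KO replicate 1 held 5 TADs instead, at 51.45 to 51.54 Mb (score 2.250), 51.54 to 51.82 Mb (2.116), 52.20 to 52.50 Mb (2.182), 52.59 to 52.68 Mb (2.043) and 52.91 to 52.97 Mb (1.892). E3-KO replicate 2 held 4, at 51.32 to 51.42 Mb (1.543), 51.46 to 51.53 Mb (1.648), 51.96 to 52.18 Mb (1.816) and 52.20 to 52.54 Mb (1.837). The TADs that began at 52.20 Mb overlapped reciprocally by 88.2% and those near 51.5 Mb by 77.8%, and no others of these libraries overlapped. In E2-KO replicate 1 TADs covered 20 kb of the 120 kb cluster, in E3-KO replicate 2 they covered 100 kb, and in the other 8 libraries all 120 kb.

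Both of these libraries had long lists of short TADs over the whole genome. Their lists held 7962 and 4859 TADs with medians of 90 and 130 kb, against 2715 to 4871 TADs with medians of 120 to 260 kb in the other 8. Both are titled w326, as are WT replicate 1 and E2-KO replicate 2, which held the long pair. All 6 libraries not titled w326 held it too, and what part the title has was not tested. A measure of depth was recovered from the listed p-values, as the contacts expected for an average pair of 10 kb bins at 1 Mb. It was 0.0147 in E2-KO replicate 1, 0.0721 in E3-KO replicate 2 and 0.0687 to 0.245 in the others. E1&E3-dKO replicate 2, at 0.0687 with 4871 TADs, kept the long pair, so a library of about the depth and list length of E3-KO replicate 2 differed from it here. What part depth has in the shorter TADs was not tested.

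Long TADs elsewhere were missing from the same lists. The length of 700 kb used for this count was set after the HoxA TADs were seen. Of TADs of at least that length held by all the other libraries with the HoxA pair, E2-KO replicate 1 lacked 82.8% of 93 and E3-KO replicate 2 lacked 29.0% of 93. E1&E3-dKO replicate 2 lacked 32.6% of 138, E2-KO replicate 2 lacked 15.5% of 110, and the other 6 libraries between 0% and 5.10%. These sets differ by library. The 93 TADs were all held by E1&E3-dKO replicate 2 too, so its share and that of E3-KO replicate 2 cannot be compared directly. Of the 93, 25.8% were missing from both E2-KO replicate 1 and E3-KO replicate 2, as the HoxA pair was, and of all 651 TADs held by the 8 others 9.98% were.

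**Figure D4:**
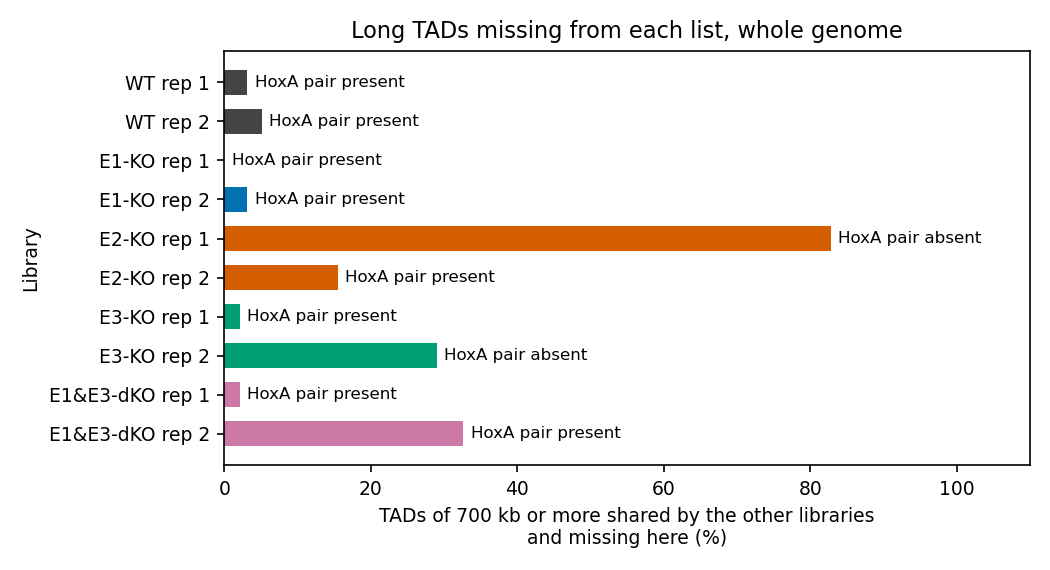
Bars give, for each library, the percentage of TADs of 700 kb or more that are held by all other libraries with the HoxA pair and missing from its own list; the words beside a bar say whether it holds the HoxA pair. E2-KO replicate 1 stands highest at 82.8%. E1&E3-dKO replicate 2, with the pair, reaches 32.6% of 138 TADs. E3-KO replicate 2, without the pair, reaches 29.0% of 93, all of them held by E1&E3-dKO replicate 2, so these 2 shares have unlike bases.

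The outer end of the domain on the Skap2 side also recurred. A boundary between 51.12 and 51.14 Mb, outside the window, was held by 10 of 10 libraries, including those without the long TAD. The outer end on the Evx1 side was less fixed, with a site at 52.95 Mb in 7 libraries and one at 52.91 Mb in 3 libraries, E2-KO replicate 1 belonging to both. E3-KO replicate 2 had no TAD end there. The window held 13 boundary sites in all, of which 8 were found in 1 library and the cluster boundary alone in at least 8. For comparison the genome was cut into 1249 windows of 2 Mb, some of which overlap this one. Of these, 90.1% held more sites than this (median 22). A higher median number of TADs per library was found in 73.1% (2 here, 3 at the median), and 57.7% held more sites of at least 8 libraries.

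No boundary of the window was lost or gained in any knockout when both libraries of each genotype were required. Lost means present in WT replicates 1 and 2 and in no library of the knockout, and gained means the reverse. The 2 sites held by both WT libraries, at 52.19 and 52.95 Mb, were each found again in at least 1 library of every knockout. Over the genome E1-KO lost 11.0% of boundaries and gained 9.83%, E2-KO lost 11.1% and gained 33.4%, E3-KO lost 8.05% and gained 12.5%, and E1&E3-dKO lost 9.45% and gained 16.4%. E2-KO replicate 1 listed 7962 TADs, the most of any library, against 2878 and 3548 in WT. What part list length has in the gained share of E2-KO was not tested. The gained shares are of the sites held by both knockout libraries, of which the window had 2 in E2-KO and 1 in each other genotype. With so few sites a count of 0 lies near these shares. Single libraries changed the counts. Without E2-KO replicate 2 that genotype gained 7 boundaries, and without E3-KO replicate 1 its genotype lost 1 and gained 6. Without E1-KO replicate 1 its genotype lost 1 and gained 1, as E1&E3-dKO did without its replicate 2.

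None of the tested values of the window separated the genotypes beyond the spread between libraries. The number of TADs was 2 in both WT libraries and averaged 2.625 ± 1.19 (SD, n = 8) in the knockouts (exact permutation p = 1, two-sided). Among libraries titled w326 the knockouts had 1.67 TADs more than WT, and among the others the difference was 0. Each of these sets of titles holds 1 WT library, so an exact permutation p cannot fall below 0.25 and 0.167 in them, and their values are given without a test. The median TAD length differed from WT by -0.22 on the log10 scale (exact permutation p = 0.6), by -0.59 among w326 libraries and by -0.00099 among the others. Without E2-KO replicate 1 the length difference was -0.11, and without both that library and E3-KO replicate 2 it was -0.0028. The median score differed by 0.04 on the log2 scale (exact permutation p = 0.422), by 0.07 and 0.01 within the same sets of titles, and by 0.01 without WT replicate 1. The nearest boundary lay 30 kb inside the high edge in WT and 27.5 ± 4.63 kb (SD, n = 8) inside it in the knockouts, and 90.0 kb inside the low edge in WT and 90.0 ± 5.35 kb in the knockouts (exact permutation p = 1 for both). Whether libraries of a genotype were more alike than other pairings of the libraries was tested for each of these values and for the number of listed pairs, and the smallest exact permutation p was 0.346, for the score (one-sided). All 12 tests had a Benjamini-Hochberg adjusted p of 1 (exact permutation). Without tied values, the smallest p the design allows is 0.0222 for WT against knockouts over all 10 libraries. For the pairing of libraries it is 0.00106. Most libraries shared a value of TAD number and of both edge distances, and such ties raise that limit. Both tests of the low-edge distance, and the pairing tests of TAD number and of high-edge distance, could not fall under 0.05. These tests therefore decide nothing about genotype. A p above the threshold does not show that the genotypes were alike.

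No more than 14 significant pairs were listed in the window in any library, and most spanned long distances. WT libraries listed 2 and 0, E1-KO 1 and 1, E2-KO 4 and 0, E3-KO 0 and 2, and E1&E3-dKO 0 and 14. They averaged 1 ± 1.41 (SD, n = 2) in WT and 2.75 ± 4.74 (SD, n = 8) in the knockouts (exact permutation p = 0.711, two-sided). Without E1&E3-dKO replicate 2, whose list of 6014 pairs was the longest, the difference from WT was 0.14 instead of 1.75. The 24 pairs were 0.00% to 0.233% of a library's list. The windows of 2 Mb cut over the genome held a median of 20, with 65.8% of them below this one. No pair had both ends in the window and no pair was listed in more than 1 library, with bins matched within 1 step. The matching shares over all listed pairs were not computed, so neither count is shown to be particular to this window.

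The ends of these pairs lay 3.85 to 83.35 Mb apart, with a median of 44.3 Mb, and 22 of 24 spanned at least 20 Mb. Of all 17029 listed pairs 53.1% spanned that distance, with a median of 23.3 Mb, and the share ran from 12.5% in E1-KO replicate 1 to 70.9% in E1&E3-dKO replicate 1. They rested on 2 to 5 reads, where 3 reads carry an exact 95% Poisson interval of 0.619 to 8.77 reads that covers counting error only. The shortest, in WT replicate 1, joined 52.165 Mb inside the cluster to 48.315 Mb with 5 reads (adjusted p in the list 0.00556). The only other pair with an end inside the cluster, in E2-KO replicate 1, joined 52.115 to 96.975 Mb with 3 reads. Its adjusted p of 1.41e-04 was the lowest of the 24, and both of these cluster ends lay on the Skap2 side of the boundary. By unadjusted p the first of the 24 was a pair of E1-KO replicate 2 from 52.375 to 37.305 Mb with 5 reads (p in the list 5.32e-11), followed by that E2-KO pair (1.06e-10). Next came a pair of E2-KO replicate 1 from 53.005 to 82.325 Mb with 3 reads (2.84e-10). A pair of E3-KO replicate 2 from 51.505 to 119.735 Mb with 3 reads (5.63e-10) and one of E1-KO replicate 1 from 52.305 to 83.455 Mb with 4 reads (2.58e-09) completed the first 5. All 5 came from knockout libraries, which made up 8 of the 10.

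Far ends of separate libraries that lay within 1 Mb of the next formed 4 groups with 10 of the 24 pairs. The groups at 5.105 to 5.405 Mb (E3-KO replicate 2 and E1&E3-dKO replicate 2), 96.005 to 96.975 Mb and 124.875 to 125.755 Mb (both E2-KO replicate 1 and E1&E3-dKO replicate 2) came from 2 libraries each, and the other from 3. In that one, the pairs of WT replicate 1 from 52.465 Mb, E1-KO replicate 1 from 52.305 Mb and E2-KO replicate 1 from 53.005 Mb reached 82.835, 83.455 and 82.325 Mb. All 3 began on the Evx1 side of the boundary, as did several pairs outside this group. The groups were noticed after the values were seen and are given without a test. How often the far ends of other windows lie this close was not counted. The bias factor, a deposited ratio to an average bin, was above 1 for the window bin in 22 of 24 pairs, with a median of 1.31. Over the bins of all listed pairs 52.7% were above 1, with a median of 1.02. The bins at the far ends had a median of 1.37. These pairs thus mostly joined bins with above-average coverage factors, and the part this has in their listing was not tested.

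**Figure D5:**
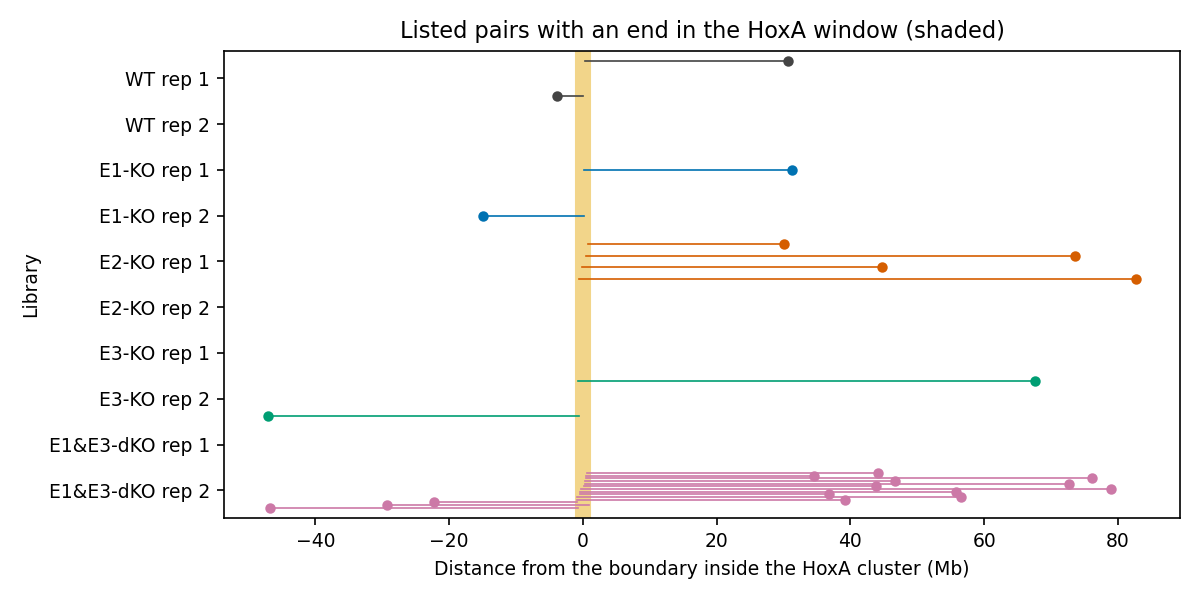
Each line is a listed pair, drawn from its bin in the HoxA window (shaded) to its other bin (dot) by distance in Mb from the boundary inside the cluster, in the library named on the vertical axis. Of 24 lines 14 belong to E1&E3-dKO replicate 2, none stays inside the window, and WT replicate 2, E2-KO replicate 2, E3-KO replicate 1 and E1&E3-dKO replicate 1 have none.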

How the data were processed

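Exo-Hi-C libraries (Hi-C with an exonuclease step against linear DNA, LRC or LIC per the labels, not stated by library) were made by the submitters, whose processing notes name mm9, HOMER and HiC-Pro (version 2.10.0). Which tool made which list is not given in the sources used here. Per library, not pooled, the authors deposited a list of pairs of 10 kb bins with a read count that is not scaled, a p-value, its adjusted p-value (none above 0.01), a bias ratio per bin, and a list of TADs with a score of at least 1.5. Total reads are unknown. Repeated pairs of WT replicate 2 (932 lines, 466 pairs) were used once.

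Depth was recovered by solving the Poisson mean that gives each listed p-value at its count and dividing by both bias factors. TAD ends were joined within 25 kb and TADs by a reciprocal overlap of 80%. Values were compared with exact permutation tests (Python 3.11.15, numpy 2.4.6, pandas 2.3.3, scipy 1.17.1), after checks on simulated data. Named were the members and neighbouring genes, boundaries of at least 8 libraries, TADs over the cluster, lost or gained features (above 10, the 5 with the highest mean score) and, of more than 20 listed pairs, the 5 with the smallest p. Both WT replicate 1 pairs, other boundaries and TADs away from the cluster were named after their values were seen. Members and lists were chosen with earlier results of these data known. Alternatives changed the TADs kept, the window, the matching distance, the threshold on pairs and the libraries used. No sequence is shown because no mm9 genome was used here.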

Additional observations from a re-analysis of the deposited data

How the results depend on the processing

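WT was compared with the knockouts under 91 alternatives. Of the 77 whose difference with all data was not 0, 72 kept its direction, 3 became 0 and 2 reversed. The other 14 are the low-edge distance, whose difference of 0 moved in 4. No exact permutation p fell under 0.05. By their number of arrangements alone, 18 of the 91 could not reach it. Tied values kept further ones above it, among them alternatives of the low-edge distance that kept all TADs. With the same number of TADs per library, the 2715 with the highest scores, the difference in TAD number (knockouts minus WT) was -0.125 and that in distance of the nearest boundary from the high edge was 80 kb (exact permutation p = 1 for both), both reversed from the values with all TADs. The cluster boundary was then held by 9 libraries. With a score of at least 2 it was held by 3, so 0 boundaries were recurrent. The difference in distance from the high edge was then -583.75 kb and that from the low edge -488.75 kb (exact permutation p = 0.267 for both). Also, 1 boundary counted as gained, in E2-KO. It was this same cluster boundary, whose WT TADs scored at most 1.986, while the Skap2-side TAD of E2-KO replicate 2 scored 2.000. No WT library kept a TAD in the window under that minimum, so its TAD length was not computed. Matching within 50 kb gave 2 recurrent boundaries, the other at 52.94 Mb. Leaving out 1 library gave 0 to 7 boundaries lost or gained and 1 to 2 recurrent boundaries. Without both libraries that lack the long TADs, an alternative chosen after seeing the data, the difference from WT was 0 in number of TADs, 0.05 in median score on the log2 scale (exact permutation p = 0.107) and -0.0028 in length on the log10 scale (exact permutation p = 0.607).

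With the replicate number as a block, the difference in TAD number was 0.625 (exact permutation p = 1), in length -0.22 (p = 0.6, exact permutation), in score 0.04 (p = 0.36, exact permutation) and in pairs 1.75 (p = 0.72, exact permutation), so the block changed no call. The replicate numbers share no source in the labels. The correlation of deviations between genotypes ran from -0.23 to 0.24 and was above 0.1 in 5 of 10 pairs of genotypes. Every negative value involved E2-KO. Whether the replicate numbers pair the libraries was thus not settled. The pairs rest on 2 to 5 reads. E1-KO replicate 1, with the highest recovered depth (0.245), lists 1 of them and E1&E3-dKO replicate 2, with 0.0687, lists 14. The part of depth in their number was not tested.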
